A study of Mus musculus with 12 samples.

Results

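The 10 genes described here encode negative regulators of T-cell receptor (TCR) signalling: the kinase gene Csk, the phosphatase genes Ptpn22, Ptpn6, Ubash3a and Ubash3b, the ubiquitin ligase genes Cbl and Cblb, the adaptor gene Sla, and the diacylglycerol kinase genes Dgka and Dgkz. They were chosen by name, and all 10 were found in a deposited table of 38339 genes. RNA was measured by total RNA sequencing of bone marrow from mice carrying transplanted primary T-lineage acute lymphoblastic leukemia (T-ALL, malignant precursors of T cells). Moribund recipients were given dexamethasone (DEX, a synthetic glucocorticoid) or vehicle (VEH), and marrow was collected 4 hours later. There were 6 leukemias, with 1 DEX and 1 VEH recipient each, so 6 libraries stood in each group. Their codes are JW-81-59B for leukemia 6, 20M-116B for leukemia 5, 2M-127B for leukemia 4, 78A-143B for leukemia 3, 73M-19A for leukemia 2 and 73A-46B for leukemia 1. All were C57BL/6 x 129Sv/Jae F1 by strain, and the labels give no dose, no vehicle and no further allele. Red cells were lysed and the labels name no sort, so a library can hold marrow cells of the host beside leukemia cells.

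When a TCR binds its ligand, the kinase LCK phosphorylates the CD3 and zeta chains, ZAP70 docks on them, and phosphorylated LAT and SLP-76 activate phospholipase C gamma, which makes diacylglycerol and so recruits RASGRP1 to start RAS signalling. Each step has its brake. CSK phosphorylates the inhibitory tyrosine of LCK, PTPN22 and SHP-1 (encoded by Ptpn6) remove activating phosphates from LCK or ZAP70, and the UBASH3 proteins act on ZAP70 and SYK. The CBL proteins attach ubiquitin to activated receptors and kinases, the adaptor SLAP (encoded by Sla) brings CBL to the receptor chains in thymocytes, and the diacylglycerol kinases remove diacylglycerol. Glucocorticoids are known to kill immature T cells and to dampen TCR signalling.

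After DEX, 3 of the 10 genes rose and 5 fell, so the brakes did not move as a group. Ubash3a, Ptpn22 and Cblb were higher, with mean levels 1.80, 1.59 and 1.56 times those in VEH. Ptpn6, Cbl, Csk, Dgka and Dgkz were lower, with means of 0.667, 0.640, 0.776, 0.767 and 0.851 times those in VEH. Sla and Ubash3b did not pass the test. The sign was the same in all 6 leukemias for Ubash3a and Ptpn22 (higher) and for Ptpn6, Cbl, Csk and Dgkz (lower), beside 5.97% of all tested genes above 0 and 13.7% below 0 in all 6. Among all 12358 genes tested with limma, 4.27% passed as higher and 9.28% as lower at an adjusted p under 0.05 (13.6% in either direction), and 31.5% of the passing genes were higher. The median log2 difference was -0.13 over the 10 genes and -0.05 over all tested genes. That split depended on scaling, with 12.7% of the passing genes higher after rescaling to TPM, 48.8% with median-of-ratios scaling and 43.6% with quantile normalization, and TPM put the median of all genes at -0.16. None of the 8 genes that passed changed direction in any of 20 alternatives, which for sets of fewer leukemias was bound to be so where all 6 had moved the same way. The number of alternatives that ended a call was 2 for Ubash3a, 3 each for Ptpn22, Ptpn6 and Csk, 4 for Cbl, 8 for Cblb, 12 for Dgkz and 15 for Dgka. Without leukemias 1 and 2, whose VEH libraries held B lineage and erythroid transcripts, 0 genes of the 10 passed as higher and 0 as lower. Among all tested genes, 104 (0.842%) and 129 (1.04%) did. Fewer pairs also leave fewer residual degrees of freedom, and why the calls ended was not tested. In that set of 4 pairs Ubash3a stood at 0.73 (limma adjusted p = 0.0826) and Ptpn6 at -0.45 (limma adjusted p = 0.0646), while Cblb was at 0.37 (limma adjusted p = 0.157).

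**Figure D1:**
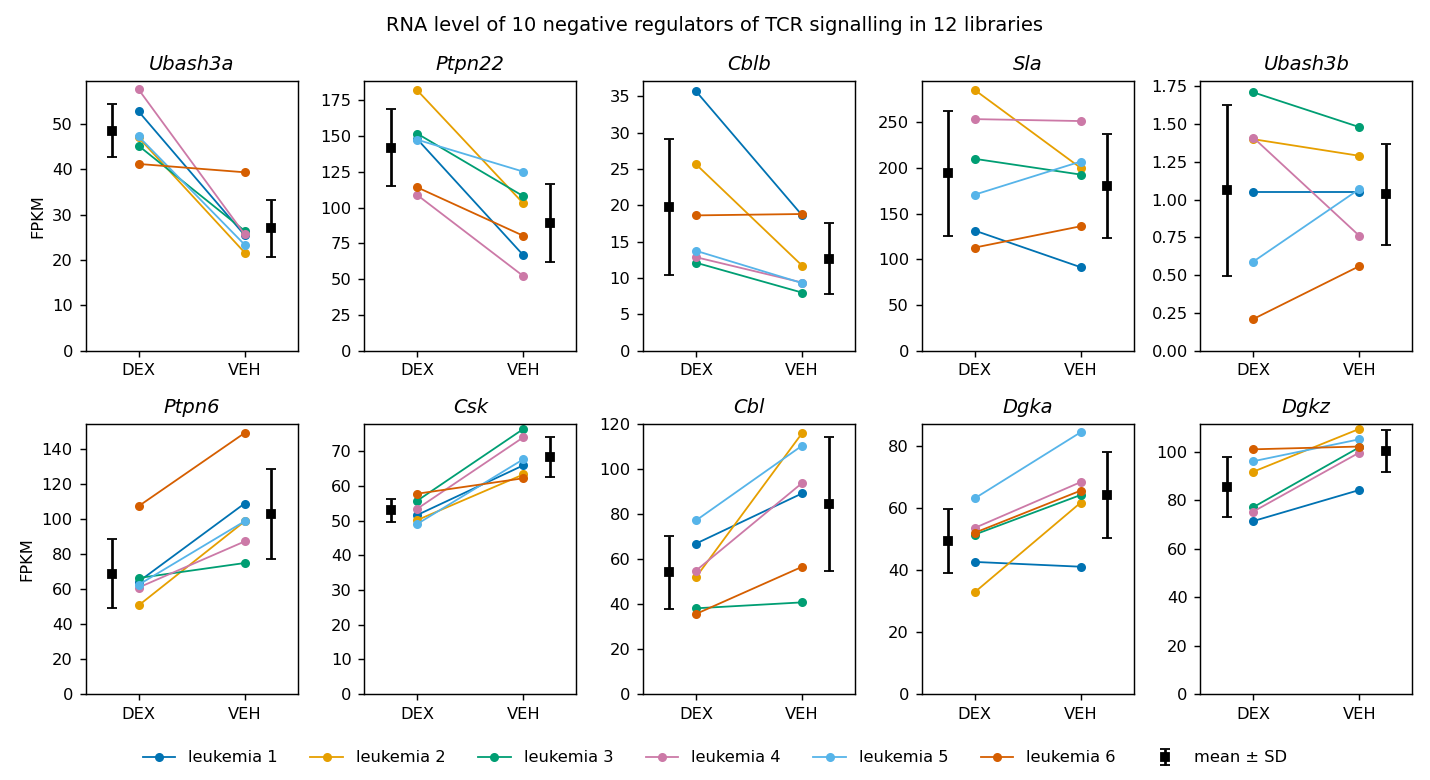
FPKM of each gene in the DEX and VEH library of every leukemia, joined by a line, with the group mean and SD beside it (black squares, n = 6). The DEX libraries of Ubash3a lie between 41.2 and 57.6 FPKM, above all VEH libraries, and those of Csk between 49.0 and 57.7 FPKM, below all VEH libraries.

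Levels are given in FPKM as deposited (fragments per kilobase of gene model, made relative to the total mapped in that library), and differences as DEX minus VEH on the scale of log2(FPKM + 1) with the moderated SE of a limma fit in which leukemia is a block. On this scale a difference understates the fold change of a low gene, and Ubash3b is the lowest of the 10. With a pseudocount of 0.1 in place of 1, the difference was -0.12 for Ubash3b, 0.61 for Cblb and 0.86 for Ubash3a. In bulk RNA, fewer cells of a type and less RNA per cell cannot be told apart. Recipients shared a leukemia but were different mice, and each arm of a leukemia was 1 mouse.

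Csk, the kinase at the head of the pathway, is on GRCm38 chr9:57626646-57653631 (minus strand). It ranged from 49.0 to 57.7 FPKM in DEX libraries with a median of 52.5, against 62.2 to 76.4 FPKM in VEH libraries with a median of 66.8. Every DEX library was below every VEH library, which 1.34% of all tested genes also showed. Csk fell by 0.36 ± 0.07 on the log2 scale (limma adjusted p = 0.0102), in 6 of 6 leukemias. Single leukemias ranged from -0.46 in leukemias 4 and 5 to -0.11 in leukemia 6. Its level varied little within a group, with a mean of 52.9 ± 3.34 FPKM in DEX and 68.2 ± 5.77 FPKM in VEH (SD, n = 6 each), and it did not pass the test between leukemias (limma F test adjusted p = 0.511).

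Of the phosphatases, Ubash3a had the largest rise among the 10 genes. Ubash3a (chr17:31207873-31246892, plus strand) encodes Sts-2, a protein of the suppressor of TCR signalling family. In DEX libraries of leukemias 1 to 6 it stood at 52.7, 47.0, 45.2, 57.6, 47.2 and 41.2 FPKM, and in the VEH libraries at 25.5, 21.6, 26.4, 25.7, 23.4 and 39.3 FPKM. All DEX libraries were above all VEH libraries, as was so for 0.388% of tested genes, and the VEH library of leukemia 6 came closest. The log2 difference was 0.84 ± 0.13 (limma adjusted p = 0.00617), higher in 6 of 6 leukemias. It lay between 0.75 and 1.14 in leukemias 1 to 5 and was 0.064 in leukemia 6. Without leukemia 6, which had the smallest change, the difference was 0.996 (limma adjusted p = 0.000598).

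Ubash3b (chr9:41011098-41161697, minus strand) encodes Sts-1, the relative with the stronger phosphatase activity, and had the lowest level of the 10 genes. It ranged from 0.21 to 1.71 FPKM in DEX libraries with a median of 1.23, and from 0.56 to 1.48 FPKM in VEH libraries with a median of 1.06. The groups overlapped throughout. The log2 difference of -0.02 ± 0.13 did not pass (limma adjusted p = 0.947), and it turned to 0.0099 with median-of-ratios scaling and 0.040 with quantile normalization. Ubash3a made up 97.9 ± 1.13% of the summed FPKM of both genes in DEX libraries and 96.1 ± 1.58% in VEH libraries (SD, n = 6 each).

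Ptpn22 (chr3:103859795-103912247, plus strand) encodes the phosphatase PEP, which binds CSK. Its levels in leukemias 1 to 6 were 148, 182, 152, 109, 147 and 114 FPKM with DEX and 66.7, 103, 108, 52.2, 125 and 80.3 FPKM with VEH. The groups overlapped, yet the DEX library was the higher one in every pair. The mean was 142 ± 27.0 FPKM in DEX and 89.2 ± 27.5 FPKM in VEH (SD, n = 6 each), a log2 difference of 0.70 ± 0.12 (limma adjusted p = 0.00766). Single leukemias ranged from 0.23 in leukemia 5 to 1.14 in leukemia 1. Gm15602 and Gm15472 overlap Ptpn22, 1 of them on the opposite strand, and were listed at no more than 15.3 FPKM in any library. Their part in the Ptpn22 values was not tested.

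Ptpn6 (chr6:124720707-124738714, minus strand) moved the other way. SHP-1, its product, is made in all blood cell lineages. It stood at 64.3, 50.7, 66.4, 60.9, 62.5 and 107.5 FPKM in DEX libraries of leukemias 1 to 6 and at 109, 98.8, 75.0, 87.3, 98.9 and 149 FPKM in VEH libraries. The DEX library of leukemia 6 was above 4 of the 6 VEH libraries, and the other 5 DEX libraries were below all of them. Ptpn6 fell by 0.59 ± 0.10 on the log2 scale (limma adjusted p = 0.00662), in 6 of 6 leukemias, by between 0.17 in leukemia 3 and 0.95 in leukemia 2. Markers of granulocytes, which also make SHP-1, differed between the DEX and the VEH mouse of a pair, in either direction. The mean log2 difference over 12 granulocyte markers was -0.74, -1.31, 0.56, 0.10, -0.34 and -1.21 in leukemias 1 to 6. Within a pair, treatment and mouse cannot be told apart. By summed FPKM of these markers, DEX was lower in leukemias 1, 2, 4, 5 and 6, so leukemia 4 differs in sign between the mean and the sum. Ptpn6 differed by -0.75, -0.95, -0.17, -0.51, -0.65 and -0.47 in leukemias 1 to 6. The part of these cells in the fall of Ptpn6 was not tested.

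**Figure D2:**
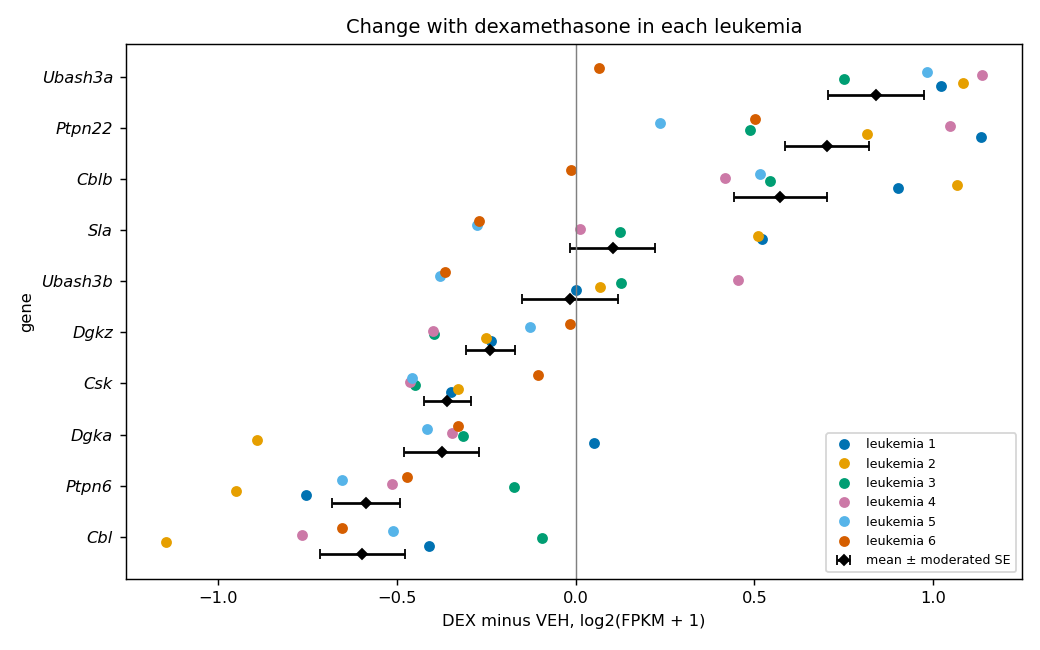
Difference DEX minus VEH of each gene on the log2(FPKM + 1) scale, with 1 coloured point per leukemia and the mean and moderated SE in black. Ubash3a has its 5 highest points between 0.75 and 1.14 and leukemia 6 at 0.064, while all 6 points of Ptpn6, Cbl, Csk and Dgkz are below 0.

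The ubiquitin ligases split in the same manner. Cblb (chr16:52031225-52208048, plus strand), the ligase best known for setting the need for CD28 costimulation in T cells, ranged from 12.1 to 35.7 FPKM in DEX libraries with a median of 16.2, against 8.0 to 18.8 FPKM in VEH libraries with a median of 10.6. The groups overlapped, and leukemia 6 had almost the same level in both libraries, 18.6 FPKM with DEX and 18.8 FPKM with VEH. Cblb rose by 0.57 ± 0.13 on the log2 scale (limma adjusted p = 0.0228), in 5 of 6 leukemias. The call ended with TPM (0.42, limma adjusted p = 0.0633) and without leukemia 1 (0.51, limma adjusted p = 0.0745), leukemia 2 (0.47, limma adjusted p = 0.0517) or leukemia 5 (0.58, limma adjusted p = 0.0651).

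Cbl (chr9:44142976-44234049, minus strand), the ligase that dominates in thymocytes, stood at 66.9, 51.9, 38.1, 54.8, 77.2 and 35.6 FPKM in DEX libraries of leukemias 1 to 6 and at 89.2, 115.98, 40.7, 93.8, 110 and 56.6 FPKM in VEH libraries. The DEX library was the lower one in each pair, though leukemia 3 differed little (-0.09 on the log2 scale). Cbl fell by 0.60 ± 0.12 (limma adjusted p = 0.0145), and leukemia 2 had the largest difference, -1.14. The call ended with no filter on low genes (limma adjusted p = 0.0708), where 27663 genes were tested.

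Sla (chr15:66780819-66831829, minus strand) had the highest mean of the 10 genes in both groups. It ranged from 113 to 286 FPKM in DEX libraries with a median of 190.5, and from 91.4 to 252 FPKM in VEH libraries with a median of 197. The groups overlapped almost fully. The difference was 0.10 ± 0.12 (limma adjusted p = 0.588), with 4 leukemias higher and 2 lower, and it was -0.034 after rescaling to TPM. Sla lies within the thyroglobulin gene Tg on the opposite strand. Tg was listed at no more than 3.40 FPKM in any library.

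Both diacylglycerol kinase genes fell. Dgkz (chr2:91932824-91975864, minus strand) ranged from 71.4 to 101 FPKM in DEX libraries with a median of 84.5, and from 84.3 to 110 FPKM in VEH libraries with a median of 102. The groups overlapped, and in leukemia 6 the pair was nearly level, at 101 FPKM with DEX and 102 FPKM with VEH. The difference was -0.24 ± 0.07 (limma adjusted p = 0.0483), lower in 6 of 6 leukemias. Without any one of leukemias 1 to 5 the call ended, at -0.21 to -0.26 (limma adjusted p = 0.092 to 0.137). It also ended with median-of-ratios scaling (-0.18, limma adjusted p = 0.165) and with eBayes without trend (limma adjusted p = 0.076), and held with TPM and quantile normalization. The antisense gene Gm9821 overlaps Dgkz and was also lower with DEX in 6 of 6 leukemias, at 10.7 to 16.9 FPKM with DEX and 13.5 to 29.2 FPKM with VEH. Whether strand was used in counting is not given in the sources used here, and the part of Gm9821 in the Dgkz values was not tested.

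Dgka (chr10:128720134-128744855, minus strand) ranged from 32.8 to 63.1 FPKM in DEX libraries with a median of 51.7, and from 41.1 to 84.5 FPKM in VEH libraries with a median of 65.0. It was lower with DEX in 5 leukemias and stood at 42.6 FPKM with DEX and 41.1 FPKM with VEH in leukemia 1. The difference was -0.37 ± 0.11 (limma adjusted p = 0.0472). The call ended without any one of leukemias 2 to 6, at -0.27 to -0.39 (limma adjusted p = 0.0751 to 0.122). Median-of-ratios scaling (limma adjusted p = 0.0783), quantile normalization (0.0661) and eBayes without trend (0.0641) ended it too, and it held with TPM.

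Pairs of genes of the same enzyme class were then compared within each leukemia, with an exact two-sided sign-flip test of the 6 differences and adjustment over 4 pairs. The smallest p that 6 leukemias allow is 0.03125. The change of Ptpn22 exceeded that of Ptpn6 by 1.29 ± 0.51 on the log2 scale (SD, n = 6), in 6 of 6 leukemias (exact p = 0.03125, adjusted p = 0.0417). Since Ptpn22 was higher and Ptpn6 lower in all 6 leukemias, this direction and p followed from the single genes. The change of Cblb exceeded that of Cbl by 1.17 ± 0.58 (SD, n = 6), also in 6 of 6 (exact p = 0.03125, adjusted p = 0.0417). Cblb was higher in 5 leukemias and Cbl lower in all 6, so those 5 signs also followed from the single genes. In leukemia 6 Cblb stood at -0.01 and Cbl at -0.65. The change of Ubash3a exceeded that of Ubash3b by 0.86 ± 0.34 (SD, n = 6) in 6 of 6 (exact p = 0.03125, adjusted p = 0.0417). Ubash3a was higher in all 6 leukemias, and Ubash3b stood at 0.0, -0.38 and -0.37 in leukemias 1, 5 and 6. Those signs thus followed from the single genes. Ubash3b changed by -0.02 on average, so this gap was close to the rise of Ubash3a alone (0.84). Dgka and Dgkz did not separate, with a difference in change of -0.14 ± 0.34 (SD, n = 6) that was above 0 in 3 of 6 leukemias and ranged from -0.64 to 0.29 (exact p = 0.469). Under the scalings tried, the gap was 1.28 to 1.298 for Ptpn22 and Ptpn6, 1.15 to 1.20 for Cblb and Cbl, and 0.74 to 0.89 for Ubash3a and Ubash3b, and for this last pair it was 0.98 with a pseudocount of 0.1.

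As a share of the summed FPKM of a pair, Ptpn22 made up 67.2 ± 8.93% of the Ptpn22 and Ptpn6 total in DEX libraries and 46.04 ± 10.5% in VEH libraries (SD, n = 6 each). The sum itself averaged 211 ± 21.6 FPKM with DEX and 192 ± 33.6 FPKM with VEH, so the makeup of the pair moved more than its total. Ptpn22 was the more abundant of the pair in 6 DEX libraries, and in VEH libraries only in leukemias 2, 3 and 5. Cblb made up 26.8 ± 8.54% of the Cblb and Cbl total in DEX libraries and 14.1 ± 6.68% in VEH libraries, while the sum averaged 73.9 ± 20.6 FPKM and 97.1 ± 29.7 FPKM in these groups (SD, n = 6 each). Cbl remained the more abundant ligase in all 12 libraries. Dgka made up 36.5 ± 5.62% of the diacylglycerol kinase pair with DEX and 38.6 ± 4.01% with VEH, while the sum averaged 135 ± 17.6 FPKM with DEX and 165 ± 21.2 FPKM with VEH (SD, n = 6 each).

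**Figure D3:**
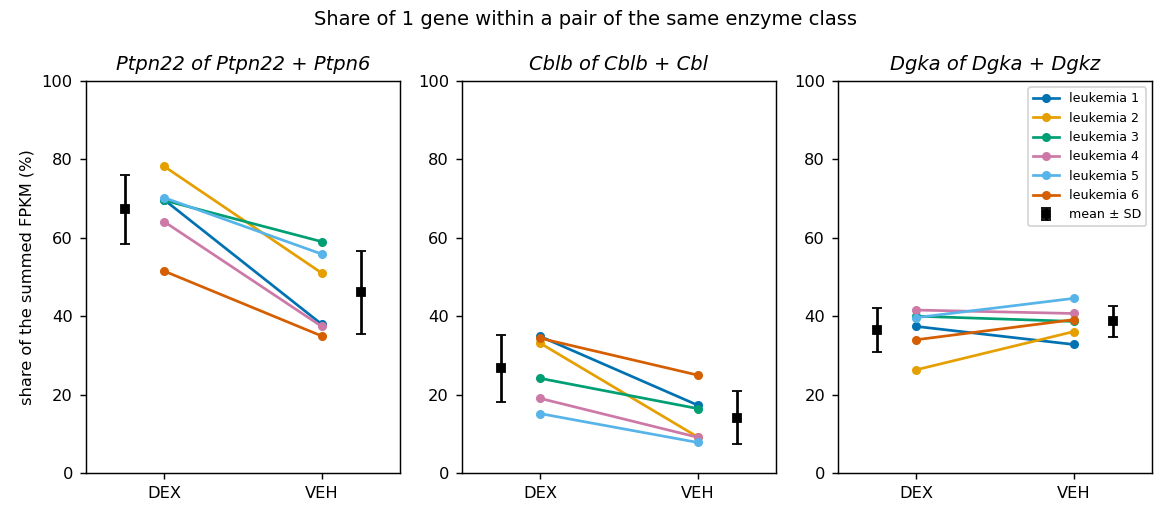
Share of the first named gene in the summed FPKM of a pair of the same enzyme class, in percent, for the DEX and VEH library of every leukemia, with mean and SD (black squares, n = 6). The share of Ptpn22 averages 67.2% with DEX and 46.04% with VEH, that of Cblb 26.8% and 14.1%, and that of Dgka 36.5% and 38.6%.

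The leukemias also differed among themselves. In an F test of the leukemia block in that limma fit, 6 of the 10 genes passed, beside 51.1% of all tested genes, and 3 passed after rescaling to TPM and 3 with no filter. These were Sla, Cbl, Cblb, Ptpn6, Ptpn22 and Dgka, with limma adjusted p of 0.00542, 0.00597, 0.00699, 0.0153, 0.0304 and 0.0376. Ubash3b, Dgkz, Csk and Ubash3a did not pass (limma adjusted p = 0.0704, 0.0797, 0.511 and 0.736). Averaged over both libraries of a leukemia, Cblb was 2.70 times higher in leukemia 1 than in leukemia 3, and Cbl 2.38 times higher in leukemia 5 than in leukemia 3, so leukemia 3 was the lowest in both ligases. Sla was 2.26 times higher in leukemia 4 than in leukemia 1, Ptpn6 1.82 times higher in leukemia 6 than in leukemia 3, Ptpn22 1.77 times higher in leukemia 2 than in leukemia 4, and Dgka 1.76 times higher in leukemia 5 than in leukemia 1. For Ubash3a and Csk the highest leukemia exceeded the lowest by 1.21 and 1.16 times.

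By mean level in DEX libraries the order from high to low was Sla, Ptpn22, Dgkz, Ptpn6, Cbl, Csk, Dgka, Ubash3a, Cblb and Ubash3b. In VEH libraries it was Sla, Ptpn6, Dgkz, Ptpn22, Cbl, Csk, Dgka, Ubash3a, Cblb and Ubash3b, so Ptpn22 and Ptpn6 exchanged places. Within DEX libraries, Ptpn22 over Dgkz, Ubash3a over Cblb and Cblb over Ubash3b held in 6 of 6 libraries. Within VEH libraries, Dgka over Ubash3a, Ubash3a over Cblb and Cblb over Ubash3b did. No pair of neighbours reached an adjusted p under 0.05 over the 9 steps of a group, and the lowest was 0.09375 (exact sign-flip test). All other neighbours changed places in at least 1 library.

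Promoter windows are shown for the 3 genes that rose and for Ptpn6, which moved against Ptpn22, because the glucocorticoid receptor acts by binding DNA. They are from RefSeq on GRCm38.p6 and run from 250 bases before to 50 bases after an annotated start, 5′ to 3′ on the transcribed strand. RefSeq gave 16 such windows for 9 of the 10 genes, and Ptpn22 has a pair of them, of which the one with a match is shown. Capitals mark AGAACA, 1 arm of the palindrome that the glucocorticoid receptor binds, read on either strand. The windows are chr17:31207816-31208115 for Ubash3a, chr3:103860027-103860326 for Ptpn22, chr16:52031299-52031598 for Cblb and chr6:124738660-124738959 for Ptpn6 (minus strand).
Ubash3a: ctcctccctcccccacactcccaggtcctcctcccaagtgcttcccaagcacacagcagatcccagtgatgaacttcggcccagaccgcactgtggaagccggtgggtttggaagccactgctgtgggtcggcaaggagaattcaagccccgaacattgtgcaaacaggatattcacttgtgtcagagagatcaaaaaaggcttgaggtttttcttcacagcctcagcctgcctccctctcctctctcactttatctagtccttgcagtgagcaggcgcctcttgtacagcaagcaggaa
Ptpn22: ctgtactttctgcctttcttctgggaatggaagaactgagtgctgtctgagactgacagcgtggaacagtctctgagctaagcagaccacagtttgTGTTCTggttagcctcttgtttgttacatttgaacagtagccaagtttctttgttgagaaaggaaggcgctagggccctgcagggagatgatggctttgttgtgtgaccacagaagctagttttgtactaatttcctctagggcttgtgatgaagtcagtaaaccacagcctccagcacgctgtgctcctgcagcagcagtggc
Cblb: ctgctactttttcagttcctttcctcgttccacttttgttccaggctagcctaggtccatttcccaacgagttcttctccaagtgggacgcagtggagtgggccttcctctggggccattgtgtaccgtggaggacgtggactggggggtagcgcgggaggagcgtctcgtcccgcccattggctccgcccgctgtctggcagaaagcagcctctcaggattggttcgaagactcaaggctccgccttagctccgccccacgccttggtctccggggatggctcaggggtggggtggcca
Ptpn6: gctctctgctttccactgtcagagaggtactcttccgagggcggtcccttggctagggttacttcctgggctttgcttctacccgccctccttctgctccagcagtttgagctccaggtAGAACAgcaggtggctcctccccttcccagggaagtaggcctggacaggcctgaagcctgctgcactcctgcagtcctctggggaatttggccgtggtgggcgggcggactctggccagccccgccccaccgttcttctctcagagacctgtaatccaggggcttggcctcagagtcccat

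The full palindrome, which is AGAACA and its reverse complement with any 3 bases between them, was in 0 of the 16 windows, and in 3 of 32851 windows of the same length over all genes (0.00913%). The single arm AGAACA, on either strand, was in 4 of the 16 windows and in 6233 of the 32851. The matches began 154 bases before the start in the window of Ptpn22 (coded -154), 131 before it in Ptpn6 (-131) and 242 before it in a window of Dgka (-242). In a window of Ubash3b the match began at position 23 counted downstream from the start. The 4 genes with a match were thus 1 riser, 2 fallers and Ubash3b, which did not pass. A match is a string of letters in a window of 300 bases and no measured binding.

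Next to the brakes stand the parts of the pathway on which they act. Of 19 genes of the TCR complex, its kinases and its adaptors, 1 rose, 6 fell and 12 did not pass, with a median log2 difference of -0.16. Among all tested genes, 4.27% rose and 9.28% fell. Rasgrp1, the RAS activator that diacylglycerol recruits, fell by 1.04 ± 0.19 (limma adjusted p = 0.00934), in 6 of 6 leukemias. Its level was far from even, between 1.08 and 248 FPKM in DEX libraries and between 3.16 and 272 FPKM in VEH libraries. Lcp2, which encodes SLP-76, ranged from 47.7 to 62.9 FPKM with DEX and from 67.5 to 96.5 FPKM with VEH, with no overlap. It fell by 0.50 ± 0.06 (limma adjusted p = 0.00202), in 6 of 6 leukemias. Themis, a thymocyte signalling protein that binds SHP-1, fell by 0.46 ± 0.06 and ranged over 88.1 to 187 FPKM with DEX and 126 to 260 FPKM with VEH. Cd3g, a CD3 chain, fell by 0.33 ± 0.06 and Nck1, an adaptor that links the receptor to actin, by 0.39 ± 0.11.

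The same list holds direct targets of the brakes. Lck, the kinase that CSK and PTPN22 act on, averaged 369 ± 53.5 FPKM with DEX and 450 ± 68.1 FPKM with VEH (SD, n = 6 each), and fell by 0.29 ± 0.07 (limma adjusted p = 0.0267). Zap70, the target of the UBASH3 proteins and CBL, averaged 58.5 ± 14.7 FPKM with DEX and 56.6 ± 18.5 FPKM with VEH and did not pass (0.07 ± 0.08, limma adjusted p = 0.588). Lat stood at 0.00 ± 0.11 (limma adjusted p = 0.997), Plcg1, the phospholipase gene, at -0.05 ± 0.08 (limma adjusted p = 0.697) and Cd247, the zeta chain gene, at 0.27 ± 0.10 (limma adjusted p = 0.118). Ptprc, which encodes CD45, the phosphatase that removes the mark CSK places on LCK, rose by 0.38 ± 0.10 (limma adjusted p = 0.0331), in 5 of 6 leukemias. It averaged 860 ± 290 FPKM with DEX and 650 ± 192 FPKM with VEH (SD, n = 6 each).

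**Figure D4:**
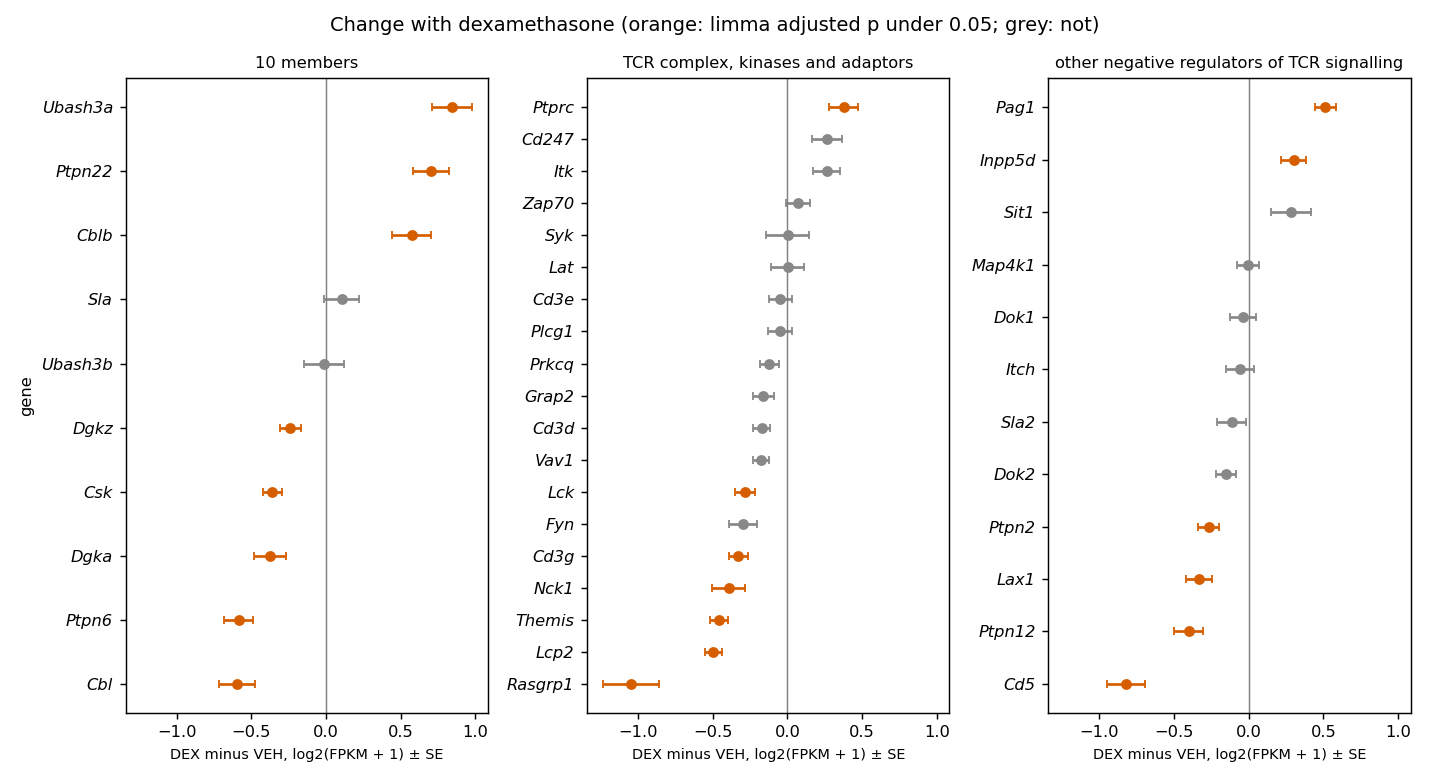
Difference DEX minus VEH with moderated SE for the 10 genes (left), the 19 genes of the TCR complex, kinases and adaptors (middle) and the 12 tested other negative regulators (right), in orange where the limma adjusted p is under 0.05 and in grey otherwise. The left panel holds 3 orange genes above 0 and 5 below, the middle panel 1 above and 6 below, and the right panel 2 above and 4 below.

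Further negative regulators of the TCR were mixed as well. Of 12 tested, 2 rose, 4 fell and 6 did not pass, with a median of -0.09, beside 4.27% higher and 9.28% lower among all tested genes. Pag1, the membrane adaptor that holds CSK at the membrane, rose by 0.51 ± 0.07 (limma adjusted p = 0.00368), in 6 of 6 leukemias, and averaged 105 ± 24.2 FPKM with DEX and 72.01 ± 11.1 FPKM with VEH (SD, n = 6 each). Inpp5d, which encodes the lipid phosphatase SHIP-1, rose by 0.30 ± 0.09 (limma adjusted p = 0.0492). Cd5, a surface receptor that tracks TCR signal strength in thymocytes, fell by 0.82 ± 0.13 (limma adjusted p = 0.00541), in 6 of 6. Ptpn12, a phosphatase of the same family as PTPN22, fell by 0.40 ± 0.10, the adaptor gene Lax1 by 0.33 ± 0.09 and Ptpn2, a phosphatase of LCK and of JAK kinases, by 0.27 ± 0.07 (limma adjusted p = 0.0262, 0.038 and 0.0421). Ptpn22 and Ptpn12 thus moved in opposite directions, a difference that was not tested.

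Of 13 related genes of the same families, 9 were tested, 0 rose and 2 fell, where 4.27% of all tested genes rose and 9.28% fell. These were Ptpn12 and Dgkd, a further diacylglycerol kinase gene, which fell by 0.47 ± 0.09 (limma adjusted p = 0.0102) and averaged 34.6 ± 7.85 FPKM with DEX and 49.7 ± 17.7 FPKM with VEH (SD, n = 6 each). Dgke (-0.15 ± 0.10, limma adjusted p = 0.343), Dgkg (-0.23 ± 0.10, limma adjusted p = 0.156), Sla2 (-0.12 ± 0.09, limma adjusted p = 0.445) and Dgkq (0.11 ± 0.10, limma adjusted p = 0.466) did not pass. Dgkh was too low to be tested and was listed at 8.57 FPKM with DEX and 21.8 FPKM with VEH in leukemia 4. The TCR-induced early genes gave 0 rises and 0 falls among 3 tested. Egr1 (-0.65 ± 0.26, limma adjusted p = 0.14), Cd69 (-0.39 ± 0.14, limma adjusted p = 0.0965) and Nr4a1 (-0.24 ± 0.13, limma adjusted p = 0.26) were below 0 at low levels, with means of 0.987, 5.56 and 5.29 FPKM with DEX and 2.46, 7.33 and 6.61 FPKM with VEH.

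Exposure to the drug was checked with 6 glucocorticoid-responsive genes, of which 4 rose. Ddit4 rose by 1.69 ± 0.15, Tsc22d3 by 1.38 ± 0.19, Bcl2l11 by 1.18 ± 0.17 and Fkbp5 by 1.06 ± 0.12, each in 6 of 6 leukemias (limma adjusted p = 0.000628 to 0.00473). Per1 (0.87 ± 0.40, limma adjusted p = 0.176) and Zfp36 (0.16 ± 0.19, limma adjusted p = 0.611) did not pass. In leukemia 6 these 4 stood at 2.18, 2.05, 1.94 and 0.61 (Ddit4, Tsc22d3, Bcl2l11 and Fkbp5). Of the 6 leukemias, leukemia 6 had the lowest change of Fkbp5 and the highest change of Tsc22d3 and Bcl2l11. The mean log2 difference over the 6 exposure genes was 1.88 in leukemia 6 and 0.58 to 1.25 in the others. That mean includes Per1 and Zfp36, which did not pass. Per1 was at 3.39 in leukemia 6 and at most 0.77 in any other, and Zfp36 at 1.09 and at most 0.41. Ubash3a and Cblb stood at 0.064 and -0.01 in leukemia 6, and a link of these values to drug exposure was not tested.

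Cell makeup was described by marker genes. The summed level of 14 T lineage markers ranged from 2581 to 5084 FPKM in DEX libraries and from 2919 to 5227 FPKM in VEH libraries, so every library held T lineage RNA. Of the 13 that were tested, Cd8b1 rose and Lck, Cd3g and Cd2 fell, where 4.27% of all tested genes rose and 9.28% fell. The 12 granulocyte markers summed to 1534 to 5459 FPKM with DEX and 2331 to 9083 FPKM with VEH, and 0 rose and 2 fell (Ltf and Cebpe). The 8 B lineage markers summed to 1.97 to 10.1 FPKM with DEX and 1.99 to 55.4 FPKM with VEH, and the 8 erythroid markers to 14.1 to 154 FPKM and 8.76 to 1176 FPKM in these groups, with the VEH libraries of leukemias 1 and 2 highest in both. No tested monocyte, B lineage, erythroid or NK cell marker passed the test, and no marker was listed at 0 in all 12 libraries. The part of these cells in the changes of the 10 genes was not tested.

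**Figure D5:**
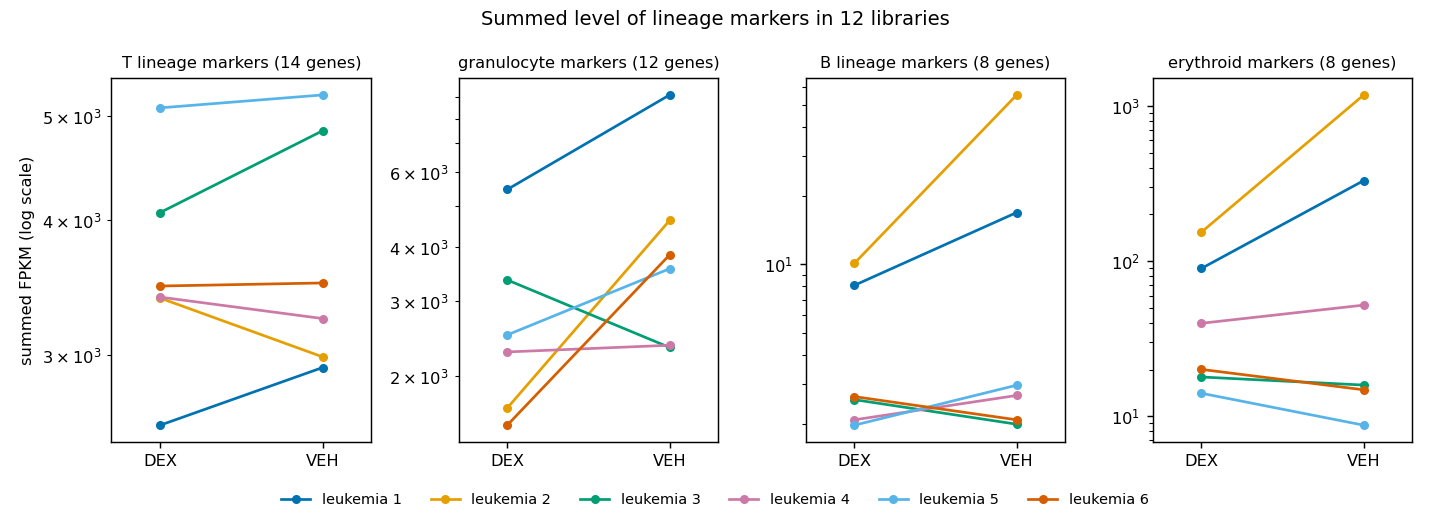
Summed FPKM of lineage marker genes in the DEX and VEH library of each leukemia, on log axes. The VEH libraries of leukemias 1 and 2 are highest in B lineage (16.9 and 55.4 FPKM) and erythroid markers (330 and 1176 FPKM), and the granulocyte sum is lower with DEX in leukemias 1, 2, 4, 5 and 6, by little in leukemia 4 (2275 FPKM with DEX and 2359 FPKM with VEH).

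The 3 genes with the largest SD over the 12 libraries were Cblb (0.60), Cbl (0.58) and Ptpn22 (0.52, all on the log2 scale). For each, the closest patterns were sought among 10552 tested protein-coding genes by the root mean square distance of centred log2 values. The nearest to Cblb were Pam, Ninj1 and 2010111I01Rik, at distances of 0.31, 0.31 and 0.32. Nearest to Cbl were 5730507C01Rik, Vps13c and Uchl4, at 0.21, 0.23 and 0.24. Nearest to Ptpn22 were Bpgm, Nudt16 and Rnf103, at 0.26, 0.27 and 0.27. None of these 9 was a gene of the TCR lists used here. Those lists are a small part of the genes searched, so this absence cannot decide whether the pathway shares these patterns.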

How the data were processed

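Total RNA sequencing was done on bone marrow of 12 mice carrying 6 transplanted T-ALLs (stranded total RNA kit, paired reads of 100 bp, per the labels' protocols). The authors deposited FPKM values, linear with 2 decimals, for 38339 genes. Per the submitters' processing notes the build was mm10, and RSEM, edgeR and Bowtie2 (version 2) were used, in roles not stated. The annotation version, filters and use of strand are not given in the sources used here. No counts were in the table, so no count test was run and depth was not estimated. FPKM summed to 1466471 to 2019058 per library, and 11778 to 12970 genes reached 1 FPKM.

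A gene was tested if 6 or more of the 12 libraries had 1 FPKM or more, which 12358 genes did. Values were analysed as log2(FPKM + 1) in limma 3.58.1 (R 4.3.3; lmFit, eBayes with trend), with leukemia as a block and treatment, two-sided, Benjamini-Hochberg over all tested genes, threshold 0.05 (5 residual and 3.99 prior degrees of freedom). Pairs come from the leukemia code that both titles share: deviations from group means correlated at 0.55 to 0.82 within pairs and at -0.34 to 0.21 between leukemias. The limma fit was tested on data simulated from the same model, which cannot show whether that model suits these FPKM values. Changes of paired genes were compared with all 64 sign flips. Coordinates are from GENCODE M21 on GRCm38, matched by identifier for 37693 genes. The genes, lists and tests were chosen with earlier results of these data known. The text names all 10 genes, up to 6 genes of each pathway list with the smallest p, the pathway genes Lck, Zap70, Lat, Cd247, Plcg1 and Rasgrp1, and the exposure genes. A gene of a pathway list is not reported here. Alternatives covered the pseudocount, the filter, scaling, the block, the variance model and the leukemias left out. Scaling to protein-coding sums and leaving out leukemias 1 and 2 together were added after seeing the data.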

Additional observations from a re-analysis of the deposited data

Results flagged for a closer look

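In 30 sets of 6 values (the DEX levels, the VEH levels and the differences of the 10 genes), 4 had 1 value standing far from the other 5, against about 1 in 20 that chance gives, and all 4 belonged to leukemia 6. In each, the gap to the nearest value divided by the range was past Dixon's 95% critical value for 6 values. Ubash3a was at 39.31 FPKM in the VEH library of leukemia 6, where the next highest VEH library had 26.42 FPKM. Its log2 difference of 0.064 in that leukemia was below the next lowest, 0.75. Ptpn6 was at 107.5 FPKM in the DEX library of leukemia 6, where the next highest had 66.37 FPKM. The log2 difference of Csk in leukemia 6, -0.11, was closer to 0 than the next, -0.33. Without leukemia 6, the calls of Ubash3a (0.996, limma adjusted p = 0.000598), Ptpn6 (-0.61, limma adjusted p = 0.011) and Csk (-0.41, limma adjusted p = 0.0053) stood. Leukemia 6 had the smallest change of Ubash3a and Csk, and its Ptpn6 difference, -0.47, was smaller in size than the mean of -0.59. Leaving it out could only enlarge these mean differences, so it is no independent check of the calls. Sets from the same genes and libraries are not independent.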

How the results depend on the processing

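Of the 10 genes, 3 rose and 5 fell in the reported fit. The count of rises was 1 with no replicate block, 0 in leukemias 2, 5 and 6 alone and 0 without leukemias 1 and 2, and 2 to 3 with 1 leukemia left out. The count of falls was 2 with no filter, 3 with median-of-ratios scaling, 0 with no replicate block, 3 with eBayes without trend, 1 in leukemias 1, 3 and 4 alone, 2 in leukemias 2, 5 and 6 alone, 0 without leukemias 1 and 2, and 3 to 4 with 1 leukemia left out. The split into leukemias 1, 3 and 4 and leukemias 2, 5 and 6 follows whether the label of the DEX library ends in a sample index. Over all tested genes, higher calls numbered 528 in the reported fit and 181 with no filter, 268 with TPM, 35 with no replicate block, 188 in leukemias 2, 5 and 6, 104 without leukemias 1 and 2, and 233 to 532 with 1 leukemia left out (233 without leukemia 5, 285 without leukemia 4 and fewer than 285 without leukemia 1). Lower calls numbered 1147 in the reported fit and 370 with no filter, 1844 with TPM, 718 with median-of-ratios scaling, 46 with no replicate block, 523 in leukemias 1, 3 and 4, 257 in leukemias 2, 5 and 6, 129 without leukemias 1 and 2, and 425 to 1042 with 1 leukemia left out (425 without leukemia 5, 488 without leukemia 1, 596 without leukemia 4, 748 without leukemia 2). Sets with fewer leukemias have fewer residual degrees of freedom, and the unfiltered set has more genes to adjust over; for the other settings the cause was not tested.

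With no replicate block, Ubash3a alone passed among the 10 genes (limma adjusted p = 0.0153), and Ptpn22 (0.156) and Ptpn6 (0.198) did not. Genes that differed between leukemias numbered 3 with no filter and 3 with TPM, against 6. The sign turned for 2 genes that had not passed: Ubash3b (0.0099 with median-of-ratios scaling, 0.040 with quantile normalization, 0.19 in leukemias 1, 3 and 4, and -0.11 to 0.057 with 1 leukemia left out, above 0 without leukemia 5 or 6) and Sla (-0.034 with TPM, -0.012 in leukemias 2, 5 and 6 and -0.10 without leukemias 1 and 2). The gap in change between Dgka and Dgkz was 0.14 in leukemias 1, 3 and 4. With 1 leukemia left out, the gap was 1.17 to 1.41 for Ptpn22 and Ptpn6, 0.96 to 1.27 for Cblb and Cbl, 0.76 to 0.94 for Ubash3a and Ubash3b and -0.22 to -0.04 for Dgka and Dgkz, and 5 leukemias cannot reach an exact p under 0.05.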
